A study of Mus musculus with 9 samples.

Results

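Kit, Kitl, Ano1 and Etv1, which mark or act in the pacemaker cells of the gut, were followed in the intestine of wild type C57BL/6 mouse embryos at E14.5. The 4 genes were found by symbol among the 24016 RefSeq identifiers of the count table, and all 4 passed the filter on low counts that left 15699 genes for testing. RNA was sequenced from 9 libraries in 3 groups of 3: whole intestine treated with cyclopamine, untreated mesenchyme and untreated epithelium. Cyclopamine, an alkaloid from plants, inhibits Smoothened, the membrane protein through which hedgehog signals pass. The series design places intestines in transwell culture for 24 hours, but no source used here says whether the separated layers were cultured too. Untreated whole intestine was not analysed here, so treated intestine was set against each layer, as the deposited table does for mesenchyme. Treatment, the presence of both layers and any difference in culture therefore cannot be told apart by these contrasts. Nothing in the labels tells single embryos from pools, and p-values rest on the spread among libraries, which may be technical.

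Interstitial cells of Cajal are the pacemakers of gut movement: they set the slow electrical waves that the neighbouring smooth muscle follows. Kit is the receptor tyrosine kinase on their surface that their development and upkeep need, and Kitl, or stem cell factor, is its ligand. Ano1 is a calcium-activated chloride channel that carries pacemaker current, and Etv1 is an ETS family transcription factor of the PEA3 group that mouse Cajal cells need and that is kept stable by Kit and MAP kinase signalling. In the mouse embryo, Cajal cells and the outer muscle arise from shared mesenchymal precursors that carry Kit. Mast cells, melanocytes and blood progenitors also use Kit.

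The start regions of the 4 genes are shown because cyclopamine acts on a pathway that ends in the GLI transcription factors, and because Etv1 is itself an ETS factor. Each window runs from 250 bases before to 50 bases after the RefSeq start on GRCm38.p6, in the direction of the gene. Capitals mark matches, on either strand, to the GLI motif GACCACCCA with up to 1 mismatch, the ETS motif CCGGAA or the TATA motif TATAAA. The windows lie at chr5:75574737-75575036 on the plus strand for Kit, chr10:100015571-100015870 on the plus strand for Kitl, chr7:144738524-144738823 on the minus strand for Ano1 and chr12:38779832-38780131 on the plus strand for Etv1. Kit and Etv1 have 2 windows each in the table, of which the first is shown.
Kit: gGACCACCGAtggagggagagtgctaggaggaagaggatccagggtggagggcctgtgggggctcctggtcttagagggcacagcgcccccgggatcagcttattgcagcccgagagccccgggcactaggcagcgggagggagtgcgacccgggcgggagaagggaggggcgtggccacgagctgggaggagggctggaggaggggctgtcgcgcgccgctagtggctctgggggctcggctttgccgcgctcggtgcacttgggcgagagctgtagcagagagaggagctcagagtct
Kitl: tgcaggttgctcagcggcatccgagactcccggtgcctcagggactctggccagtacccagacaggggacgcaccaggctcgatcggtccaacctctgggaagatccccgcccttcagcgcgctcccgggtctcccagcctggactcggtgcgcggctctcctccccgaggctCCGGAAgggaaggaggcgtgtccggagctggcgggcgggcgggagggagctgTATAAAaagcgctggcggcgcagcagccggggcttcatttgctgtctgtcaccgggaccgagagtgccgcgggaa
Ano1: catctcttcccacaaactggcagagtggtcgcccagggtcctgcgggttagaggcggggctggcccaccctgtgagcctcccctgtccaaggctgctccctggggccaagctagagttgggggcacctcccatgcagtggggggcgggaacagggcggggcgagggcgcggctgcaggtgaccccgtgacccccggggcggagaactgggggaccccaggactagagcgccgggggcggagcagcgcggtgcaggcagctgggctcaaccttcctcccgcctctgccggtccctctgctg
Etv1: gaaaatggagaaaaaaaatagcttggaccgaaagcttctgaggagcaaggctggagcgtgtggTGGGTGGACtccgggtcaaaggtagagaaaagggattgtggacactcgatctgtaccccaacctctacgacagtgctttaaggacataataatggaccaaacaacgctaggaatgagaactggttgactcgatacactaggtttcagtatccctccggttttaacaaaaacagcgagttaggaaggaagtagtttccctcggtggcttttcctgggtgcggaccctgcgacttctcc
The Kit window held a GLI match with the substitution C8G, 249 bases before the start, and the Etv1 window held one on the minus strand with A2T, 187 bases before the start (motif base first, positions counted from 1 at the motif's 5′ end, window base last). Of all 32851 windows, 6.74% held such a match with up to 1 mismatch and 0.253% an exact one. The Kitl window held CCGGAA 77 bases before the start and TATAAA 25 bases before it, letters found in 14.9% and 13.6% of all windows. The Ano1 window held none of the 3 motifs, and no match overlapped another. Bases G and C made up 69.0% of the Kit window, 68.7% of that of Kitl, 71.7% of that of Ano1 and 48.7% of that of Etv1. These matches describe letters in a window and are not measured binding sites.

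The groups carried the markers of their labels. The summed level of 18 epithelial markers was 2405 to 2799.5 CPM (TMM-scaled read counts over the library total, as in all CPM values here) in treated intestine, 177 to 220 CPM in mesenchyme and 5794 to 6311 CPM in epithelium. The 8 hedgehog targets were all lower in treated intestine than in mesenchyme, where 20.5% of all tested genes were called lower. With scaling to fibroblast genes, which moved the median of all genes to 0.995, 7 of 8 were lower. The largest difference was that of the pathway's transcription factor Gli1, which averaged 1.6 CPM in treated intestine and 215 CPM in mesenchyme (log2 difference -7.07, SE 0.644, edgeR adjusted p = 5.41e-05). Against epithelium, 3 of the 8 were higher and 1 lower in treated intestine, where 32.1% of all tested genes were higher and 29.8% lower. Total counts per library ran from 14325792 to 18274881 in treated intestine, from 9739394 to 26357115 in mesenchyme and from 19934048 to 22836297 in epithelium. Mesenchyme 1 stood apart, with 59.1% of its counts in the ribosomal precursor Rn45s against 0.112% to 1.19% in the other libraries, and it held 3284702 counts outside the 3 most abundant RNAs.

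Ano1 was the member with the largest difference between treated intestine and mesenchyme. It stood at 17.1, 13.4 and 19.4 CPM in the 3 treated intestines, at 101, 74.4 and 104 CPM in the 3 mesenchymes and at 14.9, 5.5 and 9.07 CPM in the 3 epithelia. Every mesenchyme library was far above every other library, while the treated and epithelial values overlapped. Of all tested genes, 54.8% did not overlap between treated intestine and mesenchyme, and 73.6% did not between the layers. Ano1 fell 5.59-fold in treated intestine, at 16.6 ± 3.0 CPM against 93.1 ± 16.2 CPM in mesenchyme (SD, n = 3 each; log2 difference -2.48, SE 0.326, edgeR adjusted p = 0.000411). By size of difference it ranked 757 of the 15699 genes tested. Without the shallow mesenchyme 1 the log2 difference was -2.39 (SE 0.357, edgeR adjusted p = 0.00107). Ano1 has an antisense neighbour, Gm44930, that overlaps it in the GENCODE vM21 annotation, and no source used here names the strand setting of the counting: reads of the pair cannot be told apart.

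Kit, the receptor, was lower in treated intestine by less. It stood at 77.2, 68.0 and 86.3 CPM in treated intestine, at 155, 114 and 116 CPM in mesenchyme and at 24.5, 19.8 and 29.2 CPM in epithelium. No group overlapped another, and treated intestine lay between the layers. Of all tested genes, 54.8% did not overlap between treated intestine and mesenchyme, 77.7% between treated intestine and epithelium and 73.6% between the layers. The mean was 77.2 ± 9.12 CPM in treated intestine and 128 ± 23.1 CPM in mesenchyme (SD, n = 3 each), and the log2 difference was -0.73 (SE 0.179, edgeR adjusted p = 0.0104). This call was lost without treated library 2 (log2 difference -0.63, edgeR adjusted p = 0.0581) and when treated and mesenchyme libraries were scaled to smooth muscle genes (-0.46, adjusted p = 0.222), and the sign turned when they were scaled to fibroblast genes (0.27, adjusted p = 0.245). These scalings shift all genes together, to a median of 0.319 and 0.995. Kit minus that median was -0.776 and -0.727, against -0.709 as reported. That value hardly changes under any such shift, so it is no check of the call. The authors' deposited table gives Kit a log2 ratio of -0.78 with an adjusted p of 0.0922, above the threshold of 0.05, and it gives Ano1 -2.53 with an adjusted p of 6.72e-11.

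Etv1, the transcription factor, stood at 59.5, 47.3 and 73.8 CPM in treated intestine, at 108, 71.7 and 95.0 CPM in mesenchyme and at 6.79, 2.66 and 2.05 CPM in epithelium. The highest treated library overlapped the lowest mesenchyme library, and both groups were far above epithelium. The difference between treated intestine and mesenchyme did not pass the test (log2 difference -0.60, SE 0.365, edgeR adjusted p = 0.214), and its sign turned under fibroblast scaling (0.41, adjusted p = 0.333), at -0.59 relative to the shifted median of all genes.

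Kitl, the ligand, stood at 140, 126 and 172 CPM in treated intestine, at 106, 109 and 163 CPM in mesenchyme and at 88.9, 104 and 65.2 CPM in epithelium. Treated intestine and mesenchyme overlapped widely. Their log2 difference was 0.21 (SE 0.221, edgeR adjusted p = 0.48), and it was called higher only when the libraries were scaled to fibroblast genes (1.23, adjusted p = 0.000237), a scaling that moved the median of all genes to 0.995. Of the 4 genes, 2 were thus called lower and 0 higher in treated intestine than in mesenchyme, where 20.5% of all tested genes were called lower, 20.8% higher and 41.2% either way. In bulk tissue, fewer cells of a type and less RNA per cell cannot be told apart.

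**Figure D1:**
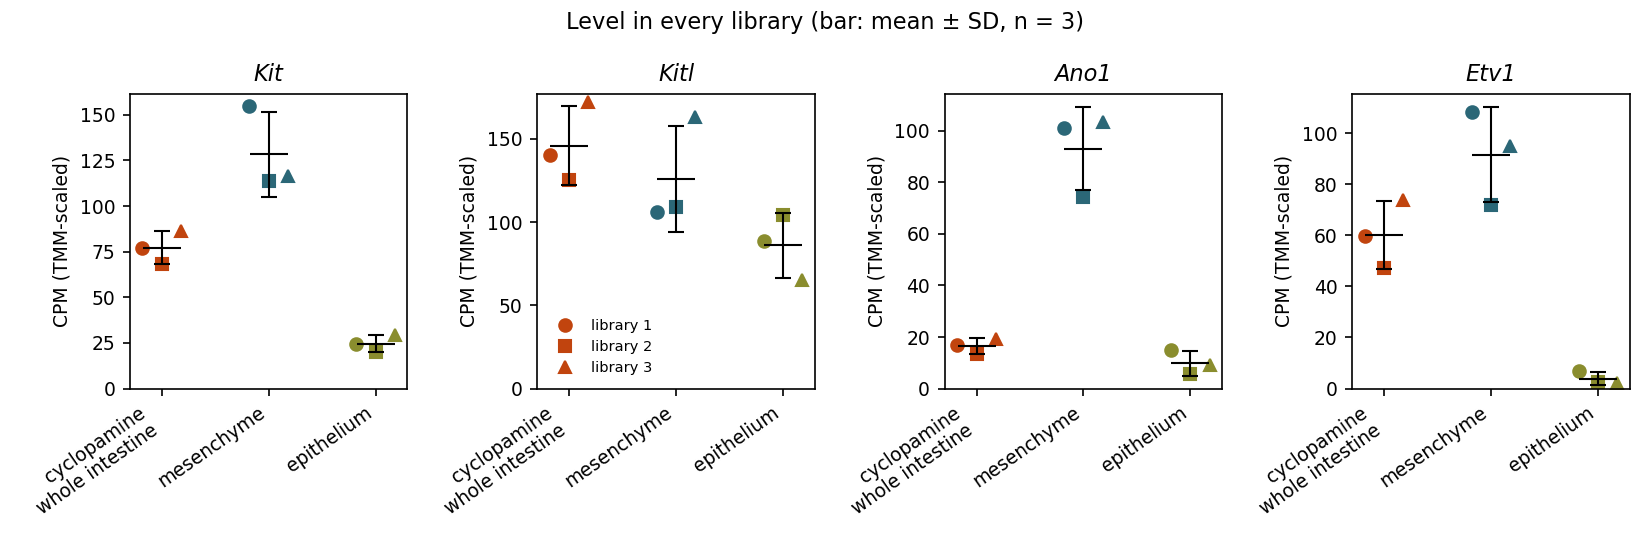
Level of each gene in every library, in TMM-scaled CPM on linear axes from 0, with treated whole intestine left of mesenchyme and epithelium; points are libraries and bars the mean ± SD of 3. Ano1 in treated intestine (13.4 to 19.4 CPM) sits near its epithelial level, while Etv1 (47.3 to 73.8 CPM) overlaps mesenchyme and Kit (68.0 to 86.3 CPM) lies between the layers.

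Between the untreated layers the 4 genes differed in how far they belonged to the mesenchyme. Etv1 averaged 91.6 ± 18.4 CPM in mesenchyme and 3.83 ± 2.58 CPM in epithelium (SD, n = 3 each), 23.6-fold higher in mesenchyme (log2 difference 4.56, SE 0.431, edgeR adjusted p = 1.18e-05). Ano1 was 9.45-fold higher in mesenchyme (log2 difference 3.24, SE 0.337, edgeR adjusted p = 2.14e-05) and Kit 5.21-fold (2.38, SE 0.188, edgeR adjusted p = 4.14e-06). Kitl averaged 126 ± 31.9 CPM in mesenchyme and 86.1 ± 19.6 CPM in epithelium (SD, n = 3 each), and the log2 difference was 0.55 (SE 0.222, edgeR adjusted p = 0.0473). The lowest mesenchyme value of Kitl, 106 CPM, lay just above the highest epithelial one, 104 CPM, and the call was lost without mesenchyme 3 (0.32, adjusted p = 0.205) or epithelium 3 (0.43, adjusted p = 0.101). All 4 genes were called higher in mesenchyme, where 35.1% of all tested genes were, with 34.6% lower and 69.6% called either way.

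Treated intestine, set against epithelium, carried more Etv1, Kit and Kitl. The log2 difference was 3.96 for Etv1 (SE 0.42, edgeR adjusted p = 4.49e-05), 1.65 for Kit (SE 0.183, adjusted p = 5.73e-05) and 0.76 for Kitl (SE 0.222, adjusted p = 0.0138), with no overlap between the libraries of the groups. Of all tested genes, 77.7% had no overlap between these groups either. Ano1 also differed by 0.76 but with a wider error (SE 0.318, edgeR adjusted p = 0.0626). Epithelium 1 held the highest epithelial Ano1 value, and without that library the difference was 1.30 (adjusted p = 0.00295). In all, 3 of the 4 genes were called higher in treated intestine, and 0 lower, against 32.1% of all tested genes higher, 29.8% lower and 61.9% either way.

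**Figure D2:**
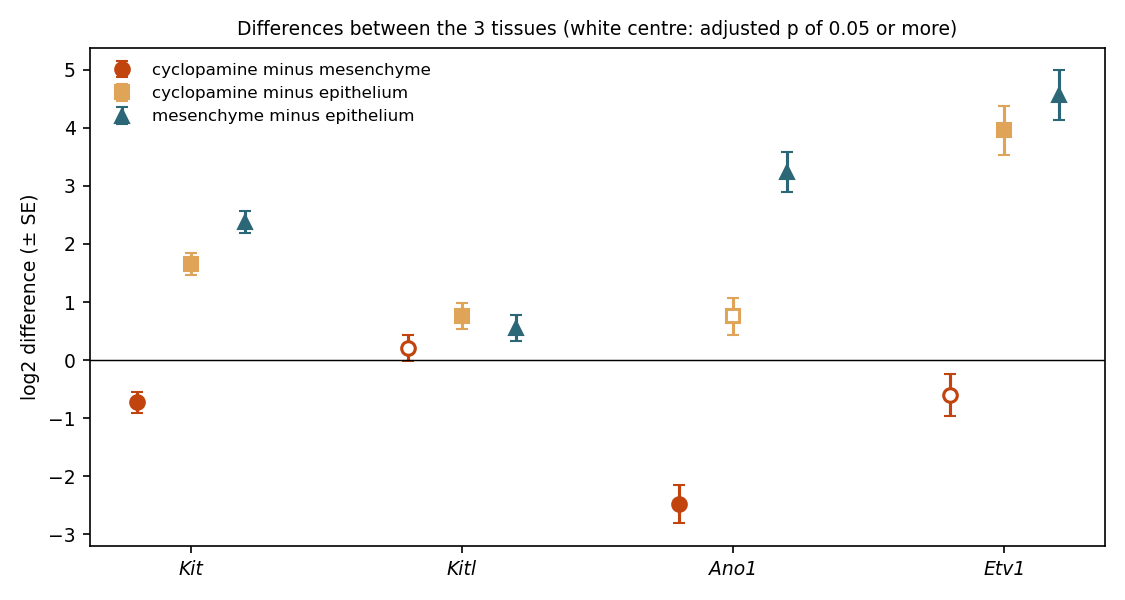
The log2 difference with its SE for each gene in the 3 contrasts, from the edgeR fit over 9 libraries; a white centre marks an adjusted p of 0.05 or more. Ano1 has the lowest value for treated intestine minus mesenchyme, -2.48, and Etv1 the highest for mesenchyme minus epithelium, 4.56.

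Levels can be set against each other between genes only per length, as CPM per kilobase of the transcript. In treated intestine the order was Kitl at 25.8 ± 4.2, Kit at 14.8 ± 1.75, Etv1 at 9.16 ± 2.02 and Ano1 at 3.64 ± 0.657 (SD, n = 3). In mesenchyme it was Kit at 24.6 ± 4.44, Kitl at 22.3 ± 5.64, Ano1 at 20.4 ± 3.55 and Etv1 at 13.9 ± 2.8 (SD, n = 3), where Kit, Kitl and Ano1 lay within each other's spread. In epithelium it was Kitl at 15.25 ± 3.48, Kit at 4.7 ± 0.903, Ano1 at 2.15 ± 1.04 and Etv1 at 0.583 ± 0.392 (SD, n = 3). The channel was the lowest of the 4 in treated intestine, and Etv1 was the lowest in both untreated layers.

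Ratios within a library hardly depend on how that library is scaled, and they separated Ano1 from Kit. Ano1 over Kit (each as CPM + 0.5) was 0.226, 0.203 and 0.229 in treated intestine, 0.654, 0.657 and 0.891 in mesenchyme and 0.617, 0.295 and 0.322 in epithelium. All treated libraries were below all others. The log2 difference of the ratio was -1.73 against mesenchyme and -0.83 against epithelium, each with an exact permutation p of 0.1 (two-sided, n = 3 and 3), the smallest this design can give. Etv1 over Kit was 0.773, 0.698 and 0.856 in treated intestine, 0.698, 0.633 and 0.817 in mesenchyme and 0.292, 0.155 and 0.0858 in epithelium. Treated intestine and mesenchyme overlapped in this ratio (log2 difference 0.12, exact permutation p = 0.5, n = 3 and 3). The ligand over its receptor, Kitl over Kit, was 1.81, 1.84 and 1.99 in treated intestine, 0.686, 0.962 and 1.4 in mesenchyme and 3.58, 5.15 and 2.21 in epithelium. No group overlapped another, and the exact permutation p was 0.1 for each pair of groups (n = 3 and 3). Of all tested genes taken singly, 54.8% did not overlap between treated intestine and mesenchyme. The share was 77.7% between treated intestine and epithelium and 73.6% between the layers. The share among ratios of other genes was not computed.

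**Figure D3:**
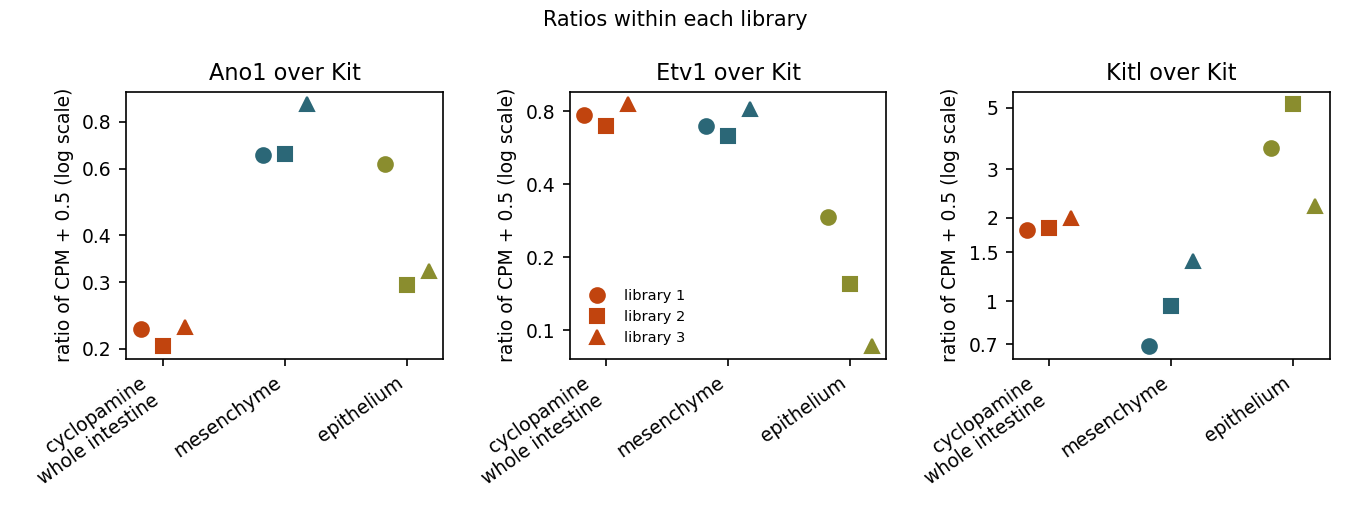
Ratios of CPM + 0.5 within each library, on log axes, for Ano1, Etv1 and Kitl over Kit; each point is 1 library. Ano1 over Kit is lowest in treated intestine (0.203 to 0.229), while Etv1 over Kit overlaps between treated intestine and mesenchyme.

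Treated intestine holds both layers, so its values were also set against a weighted mean of the layers. The epithelial share, the median of 18 epithelial markers over their epithelial level, was 45.5%, 46.2% and 40.8% in the 3 treated libraries, and the rest was given to mesenchyme. Kit was at 0.952, 0.847 and 1.0 times the mixture value and Etv1 at 1.15, 0.927 and 1.32 times. Both lay around the mixture value. Kitl was above it in every treated library, at 1.3, 1.17 and 1.57 times. Ano1 was at 0.309, 0.246 and 0.328 times the mixture value, a mean of 0.294 ± 0.043 (SD, n = 3), below it in every library. A mesenchymal share from 15 smooth muscle markers (77.1%, 75.0% and 71.5%) was also used, with the epithelial share kept. The mean was then 0.73 for Kit, 0.87 for Etv1, 1.11 for Kitl and 0.23 for Ano1. These shares together exceed the whole, which raises the mixture value and lowers the ratios. The shares rest on marker genes that cyclopamine may itself change, which was not tested.

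**Figure D4:**
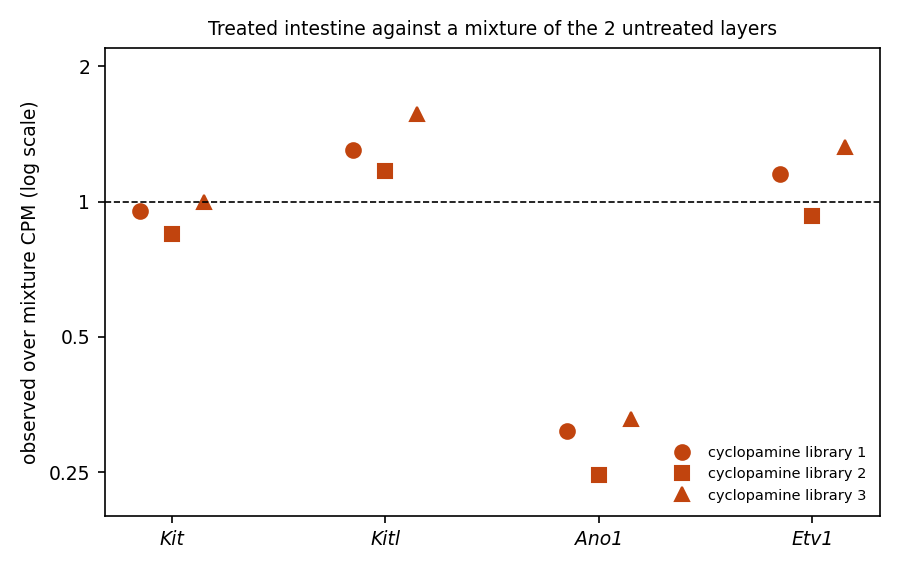
Observed CPM in each treated library over the CPM of a mixture of epithelium and mesenchyme weighted by epithelial marker share, on a log axis; the dashed line at 1 is the mixture. Ano1 lies between 0.246 and 0.328, and the other 3 genes between 0.847 and 1.57. No other genes were set against the mixture.

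The epithelial values are given beside those of other genes that were higher in mesenchyme. In epithelium 1, 2 and 3, the median of 16 fibroblast markers stood at 8.55%, 2.59% and 1.26% of their mesenchyme mean, the median of 15 smooth muscle markers at 7.81%, 2.94% and 1.57%, and the median of 16 enteric neural markers at 9.44%, 5.29% and 3.49%. Etv1 stood at 7.42%, 2.91% and 2.24% in the same libraries. Ano1 stood at 16.0%, 5.9% and 9.74%, Kit at 19.1%, 15.5% and 22.8% and Kitl at 70.5%, 82.7% and 51.7%, all above the 3 marker medians in each library. The highest single fibroblast marker stood at 12.7%, 8.76% and 11.4%, and the highest smooth muscle marker at 15.9%, 11.6% and 11.3%. Kit was above both in each library, and Ano1 in epithelium 1 only. The highest enteric neural marker stood at 27.5%, 21.9% and 27.2%. Ano1 and Kit thus lay within the range of the neural markers in all 3 epithelia. Kitl was above the highest marker of all 3 lists in each library. Whether the epithelial transcripts of the 4 genes came from carried-over mesenchyme or from epithelial cells was not tested. In treated intestine 1, 2 and 3, Ano1 stood at 18.3%, 14.4% and 20.8% of its mesenchyme mean, Kit at 60.2%, 53.1% and 67.3% and Etv1 at 65.0%, 51.7% and 80.6%. In those treated libraries the median marker stood at 52.9%, 45.4% and 53.3% for fibroblast and 77.1%, 75.0% and 71.5% for smooth muscle genes. It stood at 100%, 90.8% and 100% for enteric neural and 50.9%, 40.9% and 60.3% for endothelial genes. The lowest single marker stood near Ano1 for fibroblast (16.7%, 15.4% and 16.9%) and endothelial genes (17.6%, 14.0% and 18.7%). It stood at 36.7%, 34.0% and 36.2% for smooth muscle and 44.0%, 20.4% and 52.9% for enteric neural genes.

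Of 19 other genes of Cajal cells and of pacing, 9 were lower, 1 was higher and 9 were not called in treated intestine set against mesenchyme, where 20.5% of all tested genes were lower and 20.8% higher. Their median log2 difference was -0.594, and that of all tested genes -0.0192. Among them, Cacna1h, a T-type calcium channel, averaged 48.7 CPM in treated intestine and 297 CPM in mesenchyme (log2 difference -2.60, SE 0.379, edgeR adjusted p = 0.000727). Prkcq, a protein kinase C used as a Cajal cell marker, fell by 2.08 on the log2 scale (SE 0.679, edgeR adjusted p = 0.0345), Cacna1d, an L-type calcium channel, by 1.96 (SE 0.494, adjusted p = 0.0115) and Itpr1, the receptor that releases stored calcium, by 1.22 (SE 0.188, adjusted p = 0.000962). The gene called higher was Slc12a2, a cotransporter that loads cells with chloride, at 288 CPM in treated intestine and 188 CPM in mesenchyme (log2 difference 0.61, SE 0.126, edgeR adjusted p = 0.00447), named after its values were seen. The count of lower genes was 5 without treated library 2, 4 under smooth muscle scaling and 1 under fibroblast scaling, where 7 were higher; these scalings moved the median of all genes to 0.319 and 0.995. The summed level of the list was 1463 to 1605 CPM in treated intestine, 2375 to 2586 CPM in mesenchyme and 959 to 1030.3 CPM in epithelium. Between the layers, 16 of the 19 were higher in mesenchyme and 2 lower, led by the substance P receptor Tacr1 (log2 difference 5.17), the guanylate cyclase subunit Gucy1a3 (5.16), the kinase Prkg1 (4.94) and the matrix protein Thbs4 (4.93), where 35.1% of all tested genes were higher and 34.6% lower. Against epithelium, treated intestine had 14 of the 19 higher and 1 lower, where 32.1% of all tested genes were higher and 29.8% lower.

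Of 22 signalling effectors, 3 were higher and 7 lower in treated intestine than in mesenchyme (median log2 difference -0.289), near the shares of all tested genes, of which 20.8% were higher, 20.5% lower and 41.2% called either way. The count of lower effectors was 3 without treated library 3 and 4 without treated library 1, treated library 2 or epithelium 3. The largest was Plcg1, a phospholipase that raises calcium, at 79.1 CPM in treated intestine and 233 CPM in mesenchyme (log2 difference -1.56, SE 0.13, edgeR adjusted p = 3.22e-05), followed by Stat3 (-0.91), the adaptor Gab2 (-0.76) and the kinase Fyn (-0.69). Of 8 brakes on Kit signalling, 2 were lower and 0 higher, also near those shares: the adaptor Sh2b3 (-0.83, edgeR adjusted p = 0.00864) and the ubiquitin ligase Cblb (-0.62, edgeR adjusted p = 0.0469). The count of lower brakes was 0 without treated library 2, 1 without mesenchyme 3 or any other treated or epithelium library, and 4 without mesenchyme 2. Of 7 PEA3 factors and ERK feedback genes, 3 were lower and 1 higher, against the same 20.5% and 20.8% of all tested genes. The ERK pathway inhibitors Spry4 (-1.82), Spry1 (-1.11) and Spry2 (-1.02) were lower, and Dusp4, a MAP kinase phosphatase, was higher (1.11). Their mesenchyme libraries spread widely for Spry4 (85.6 ± 57.4 CPM) and Spry1 (106 ± 45.3 CPM; SD, n = 3). Spry2 stood there at 82.0 ± 13.4 CPM and Dusp4 at 22.4 ± 7.03 CPM. The relatives of Etv1 in the PEA3 group, Etv5 (-0.66, edgeR adjusted p = 0.0585) and Etv4 (0.20, edgeR adjusted p = 0.373), did not pass the test and are named after their values were seen. Scaling to smooth muscle or fibroblast genes, which shifts all genes together (median of all genes 0.319 and 0.995), left 1 and 1 effector, 0 and 0 brakes, and 1 and 0 feedback genes lower, with 7 and 19 effectors, 0 and 3 brakes, and 1 and 3 feedback genes higher.

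**Figure D5:**
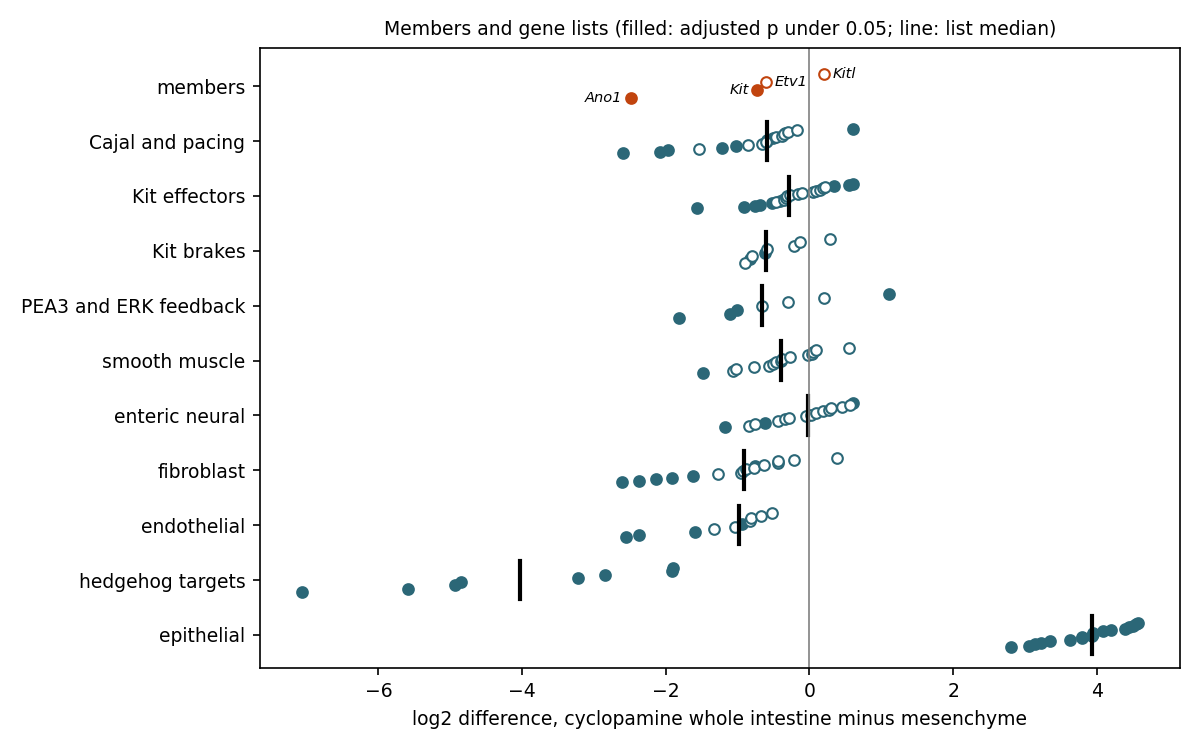
The log2 difference of treated intestine minus mesenchyme for the 4 genes and for every tested gene of 10 lists; filled points have an adjusted p under 0.05 and vertical lines are list medians. Ano1 at -2.48 lies near the low end of the Cajal and pacing genes, and the 8 hedgehog targets have a median of -4.03.

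Markers of other cells were read beside these values. Smooth muscle genes, whose cells share precursors with Cajal cells, were lower for 1 of 15 in treated intestine than in mesenchyme (summed level 3922 to 4356 CPM in treated intestine, 4540.3 to 6156 CPM in mesenchyme), and enteric neural genes were lower for 2 and higher for 1 of 16 (1232 to 1366 CPM in treated intestine, 1385 to 1745 CPM in mesenchyme). Fibroblast genes were lower for 6 of 16 (5389 to 5993 CPM in treated intestine, 14280 to 18950 CPM in mesenchyme), endothelial genes for 4 of 10 (363 to 502 CPM in treated intestine, 833 to 953 CPM in mesenchyme), and all 18 epithelial markers were higher. Of all tested genes, 20.5% were lower and 20.8% higher. Without epithelium 1 the lower counts were 3 for smooth muscle, 10 for fibroblast and 9 for endothelial genes, and without epithelium 3 there were 2 for smooth muscle. Without any 1 treated library there were 3 for fibroblast genes, without treated library 1 or 2 there were 2 for endothelial and 0 for enteric neural genes, and without mesenchyme 3 there were 2 and 0; without mesenchyme 2 there was 1 for enteric neural genes. With fibroblast scaling, 3 smooth muscle and 10 enteric neural genes were higher, and 1 and 0 lower, with the median of all genes at 0.995. The part of these cells in the differences of the 4 genes was not tested. The 9 mast cell markers were near 0, with a summed level of 0.174 to 1.1 CPM in treated intestine, 0.661 to 1.81 CPM in mesenchyme and 0.239 to 2.01 CPM in epithelium, and Fcer1a, the mast cell IgE receptor chain, was at 0 in every library. The melanocyte genes Tyrp1 and Mlana were at 0 in every library, and the 6 melanocyte genes summed to 8.98 to 10.1 CPM in treated intestine, 9.08 to 12.98 CPM in mesenchyme and 7.94 to 10.7 CPM in epithelium. Among them, Mitf stood at 5.17 to 6.16, 7.41 to 9.8 and 1.74 to 2.46 CPM in these groups. Dct stood at 1.12 to 1.74, 0 to 0.132 and 3.82 to 5.67 CPM, and Pmel at 1.36 to 3.31 CPM over all libraries. Of 3 melanocyte genes tested, 1 was higher and 0 lower in treated intestine than in mesenchyme. Blood progenitor and erythroid genes were higher for 3 of 7 tested (2 without mesenchyme 3 or any 1 treated library), with a summed level of 544 to 681 CPM in treated intestine and 205 to 341 CPM in mesenchyme; their part was not tested.

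The genes whose profile lay nearest to each member were named by Euclidean distance of log2(CPM + 0.5), each profile centred on its own mean, over the 9 libraries and among 12940 genes. Nearest to Kit were Tmem136 (distance 0.198), Amotl2 (0.316), Cplx2 (0.341), Zfp532 (0.343) and Sepn1 (0.344). Nearest to Etv1 were Vash1 (0.319), Pcdh7 (0.36), Sdc3 (0.424), Pde4b (0.469) and Robo1 (0.487). Nearest to Kitl were Pnpla8 (0.474), Zfp790 (0.528), Csgalnact1 (0.532), Arl5a (0.544) and Ghr (0.549). Ano1 had no gene so close: its nearest were Adamts14 (0.768), Slc24a4 (0.872), Sema3f (0.893), Fn1 (0.956) and Hgf (1.01). Among the members, Kit and Ano1 were the closest pair at 2.31 and Kitl and Etv1 the farthest at 5.31. The genes named above were chosen as the nearest of 12940, so distances between members cannot be set against theirs.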

How the data were processed

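The submitters' processing notes name TopHat2 2.0.13, DESeq and the mm9 build. Counting program, annotation and strand setting: not given in the sources used here. The authors deposited raw read counts for 24016 RefSeq identifiers. They also deposited group means, a signal of counts over size factors, with a ratio (fold) of the means, p-values and adjusted p-values, per the file headers; log2 was taken of the deposited ratio.

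All 9 libraries entered 1 edgeR 4.0.16 fit in R 4.3.3, with 3 group means, filterByExpr at a minimum count of 10, TMM scaling, two-sided quasi-likelihood F tests, and p-values adjusted by Benjamini-Hochberg over 15699 genes at a threshold of 0.05. SE is the size of the log2 difference over the square root of F. CPM uses TMM-scaled library sizes. The script was tested on simulated data. Per kilobase levels use GENCODE vM21 transcripts, and start regions come from RefSeq (GRCm38.p6), matched by symbol for all 4 genes.

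The 4 genes and all gene lists were chosen with earlier results of these data known. Named are the 4 genes, up to 4 called genes of largest difference per list and the 5 nearest genes per member. Replicates differed beyond sampling noise. Of 9 same-numbered pairs of libraries, 3 deviated together above a correlation of 0.1. This does not settle whether the numbers pair the libraries, and no block was used in the main fit. Alternatives changed the scaling, filter, tool, block, samples fitted and libraries. Depth limits mesenchyme 1 most.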

Additional observations from a re-analysis of the deposited data

How the results depend on the processing

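Of 361 settings compared over 33 results, 339 kept direction and side of the threshold, or stayed near the reported value. Kit in treated intestine minus mesenchyme (-0.73) was not called without treated library 2 (-0.63; range -0.81 to -0.54 over libraries left out) or with smooth muscle scaling (-0.46), and turned to 0.27 with fibroblast scaling. Under that scaling Etv1 turned to 0.41 and Kitl was called at 1.23. The cause was not tested; the scaling moved the median of all genes to 0.995, and smooth muscle scaling to 0.319. Relative to that median, Kit was at -0.727 and Ano1 at -2.47 with fibroblast scaling. Such relative values hardly change when all genes shift together, so they are no check of the calls. Ano1 minus its epithelial level (0.76) was called with DESeq2 (0.75) and without epithelium 1 (range 0.54 to 1.3), and Kitl in mesenchyme minus epithelium (0.55) was not called without epithelium 3 or mesenchyme 3 (range 0.32 to 0.76).

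With the replicate number as a block, Ano1 in treated intestine minus epithelium was 0.83 (adjusted p = 0.0136), Kitl in mesenchyme minus epithelium 0.53 (adjusted p = 0.0817) and Kit in treated intestine minus mesenchyme -0.73 (adjusted p = 0.00715). Correlations of same-numbered deviations ran from -0.202 to 0.268, and those of different-numbered ones from -0.22 to 0.173. Between mesenchyme and treated intestine, same-numbered pairs were at 0.224, 0.194 and 0.056, and different-numbered pairs ran from -0.205 to 0.033. These correlations do not settle whether the numbers pair the libraries.

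Genes called lower in treated intestine than in mesenchyme numbered 1972 to 3511 with a library left out (1972, 2019 and 2136 without treated library 1, 2 and 3), against 3211. The Cajal and pacing count, an alternative chosen after seeing the data, was 5 to 11 with a library left out, 4 with smooth muscle scaling and 1 with fibroblast scaling. A smooth muscle share moved observed over mixture to 0.73 for Kit, 1.11 for Kitl, 0.23 for Ano1 and 0.87 for Etv1. The epithelial share was kept there, so the shares together exceed the whole. Leaving out libraries gave 0.89 to 1.03 for Kit. Depth limits mesenchyme 1, with 585 Kit and 382 Ano1 counts.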

Other observations

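The receptors nearest to Kit in kind and their ligands were lower for 4 and higher for 0 of 10 tested in treated intestine than in mesenchyme, where 20.5% of all tested genes were lower and 20.8% higher. With smooth muscle scaling, which moved the median of all genes to 0.319, 3 were lower and 1 higher, and with fibroblast scaling, which moved it to 0.995, 0 and 5. The PDGF receptor Pdgfrb averaged 121 CPM in treated intestine and 498 CPM in mesenchyme (log2 difference -2.04, SE 0.715, edgeR adjusted p = 0.0451). The macrophage receptor Csf1r differed by -1.62 (SE 0.275, edgeR adjusted p = 0.00165), its ligand Csf1 by -1.56 (adjusted p = 0.00867) and Flt3l by -1.54 (adjusted p = 0.00676). Pdgfra, at 295 CPM in treated intestine and 570 CPM in mesenchyme, did not pass the test (log2 difference -0.95, edgeR adjusted p = 0.188) and is named after its values were seen. Of 8 tested relatives of Ano1, Ano9 was higher in treated intestine (2.97, SE 0.259, edgeR adjusted p = 4.21e-05), at 10.1 CPM against 1.48 CPM in mesenchyme, and its epithelial mean was 53.2 CPM. Ano8 (-0.94, adjusted p = 0.00159) and Ano6 (-0.44, adjusted p = 0.0281) were lower, though only 1 relative was lower without epithelium 3, mesenchyme 3 or any 1 treated library, and with fibroblast scaling 0 were lower and 3 higher.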
